A study of Mus musculus with 47 samples.

Results

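The collagens and other extracellular matrix genes of single NPY-positive neurons were described from a table of read counts per gene. Members were every gene symbol of the collagen, laminin, link protein (Hapln1 to Hapln4) and Adamts protease families, together with the lecticans Acan, Bcan, Ncan and Vcan, the tenascins Tnr and Tnc, and Sparc, Sparcl1 and Fn1. They numbered 88 of the 22800 symbols in the table. Col4a3bp entered through its spelling although it encodes a ceramide transfer protein and no collagen. It is kept in the counts because it met the rule, and is named where it is counted.

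The cells were GABAergic interneurons labelled by green fluorescent protein under the Npy promoter in acute slices of transgenic NPY-hrGFP mice of both sexes, 3 to 8 weeks old, which the series record calls NPY-EGFP. Their cytosol was drawn into a patch pipette and sequenced cell by cell (Patch-RNAseq). The comparison was between 10 cells of the superficial auditory cortex (AC, layers 1 to 2) and 13 cells of the dendritic layers of hippocampal area CA3, with 3 cells of area CA1 beside them, all untreated. A reporter under the Npy promoter labels any cell in which that transgene is active, so each group can hold several interneuron types. The 8 mice of the whole series are not tied to cells, so cells of 1 region may come from the same mouse, each region counts as 1 sample, and no test between regions could be made. Below, SDs are over cells, and intervals on summed reads (exact Poisson) and on shares of cells (exact Clopper-Pearson), at 95%, cover counting error only. Reads carried no molecular identifiers.

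The neuronal matrix of the brain differs from that of connective tissue. Hyaluronan chains are bound by lecticans, large chondroitin sulphate proteoglycans, and link proteins of the Hapln family lock that bond, while tenascin-R ties the far ends of lecticans together. In its densest form this lattice is the perineuronal net around some interneurons. Collagens and laminins belong chiefly to basement membranes of vessels and meninges, although some collagens, among them the transmembrane collagen Col25a1, are made by neurons. Adamts proteases cut lecticans and other matrix proteins, and Sparc and Sparcl1 are secreted proteins that modulate cell contact with the matrix and are known as products of glia.

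The main AC cells held 1715012 to 6265431 reads on genes, and the main CA3 cells 2229519 to 7949918. Gad1, Gad2 and Npy were read in all 23 of these cells. Pyramidal cell markers summed to at most 828 CPM (counts per 1000000 reads on genes) in any of them. Defining markers of vessels and connective tissue (Cldn5, Flt1, Pdgfrb, Dcn, Lum), of astrocytes (Aqp4) and of oligodendrocytes (Mog, Cldn11) were at 0 in all 23. Other genes of these lists were read: the oligodendrocyte list summed to 0 to 367 CPM in AC (above 0 in 4 cells) and 0 to 955 CPM in CA3 (above 0 in 10 cells), mostly Mbp, and the endothelial and the mural and fibroblast lists reached at most 33.7 and 81.2 CPM in any cell. Other astrocyte markers summed to 0.303 to 3030 CPM in AC cells (median 217) and 0 to 659.6 in CA3 cells (median 37.9). The microglia list, of which 6 of 6 genes were read in each region, summed to 0 to 4330 CPM in AC (median 298) and 0 to 1864 in CA3 (median 121). Of 20 columns labelled AC and 21 labelled CA3, the others were left out of the main set, by a rule not stated here. The paper kept more CA3 cells than the main set holds. Several left-out libraries stood apart from their label: astrocyte markers summed to 31129 to 38165 CPM in 1 AC library, 3 CA3 libraries and both dentate gyrus libraries. Others did not stand apart in this way. CA3 column N36 held 27768 CPM of GABAergic markers and 0 on each glial list. AC column N45 held 5962 CPM of GABAergic markers, with 3.61 CPM on the astrocyte, 534 on the oligodendrocyte and 677 on the microglia list. 2 AC columns (N4 and N4X) agreed almost completely (Pearson r = 0.9998 over genes) and counted as 1 cell where all 19 AC and 21 CA3 labelled cells were used. Their counts still differed by more than Poisson error, with a chi-square of 2.20 per degree of freedom. The Poisson intervals given here may therefore be too narrow.

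A small set of matrix genes was read across these interneurons. A read was found on 53 of the 88 members in at least 1 of the 23 cells (60.2%, against 59.8% of all symbols), but only 15 of 88 members, against 40.2% of all symbols, had a read in at least 5 cells, the condition for comparing a gene. Of the rest, 38 were read in 1 to 4 cells, and 35 in none, which allows up to 0.0362 CPM over the 23 cells together. A cell held reads on 8.7 ± 3.3 members in AC (SD, n = 10) and 11.5 ± 2.9 in CA3 (SD, n = 13). Summed over members, a cell held 2704 ± 1032 CPM in AC, compared with 2565 ± 1083 CPM in CA3, a difference smaller than the spread between cells. Without the 4 main cells that passed 1000 CPM on a glial marker list, the direction turned, with 2237 ± 302 CPM in AC and 2607 ± 1120 CPM in CA3. Over all 23 cells, Hapln1, Sparcl1 and Sparc alone held 66.4 ± 21.3% of member reads in AC and 68.8 ± 15.8% in CA3. On a per-length scale (RPKM, CPM per kilobase of exon), the highest members in AC were Sparcl1 at 298 ± 166, Sparc at 106 ± 276, Hapln1 at 105 ± 69.0 and Hapln4 at 46.2 ± 51.2. In CA3 they were Hapln1 at 209.9 ± 149, Sparcl1 at 182 ± 141, Col25a1 at 21.4 ± 21.4 and Hapln4 at 19.4 ± 25.7 RPKM. In both orders, the ranges of 1 SD around neighbouring means overlapped. The place of Sparc in AC leaned on N42, which alone held 85.8% of its AC reads.

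**Figure D1:**
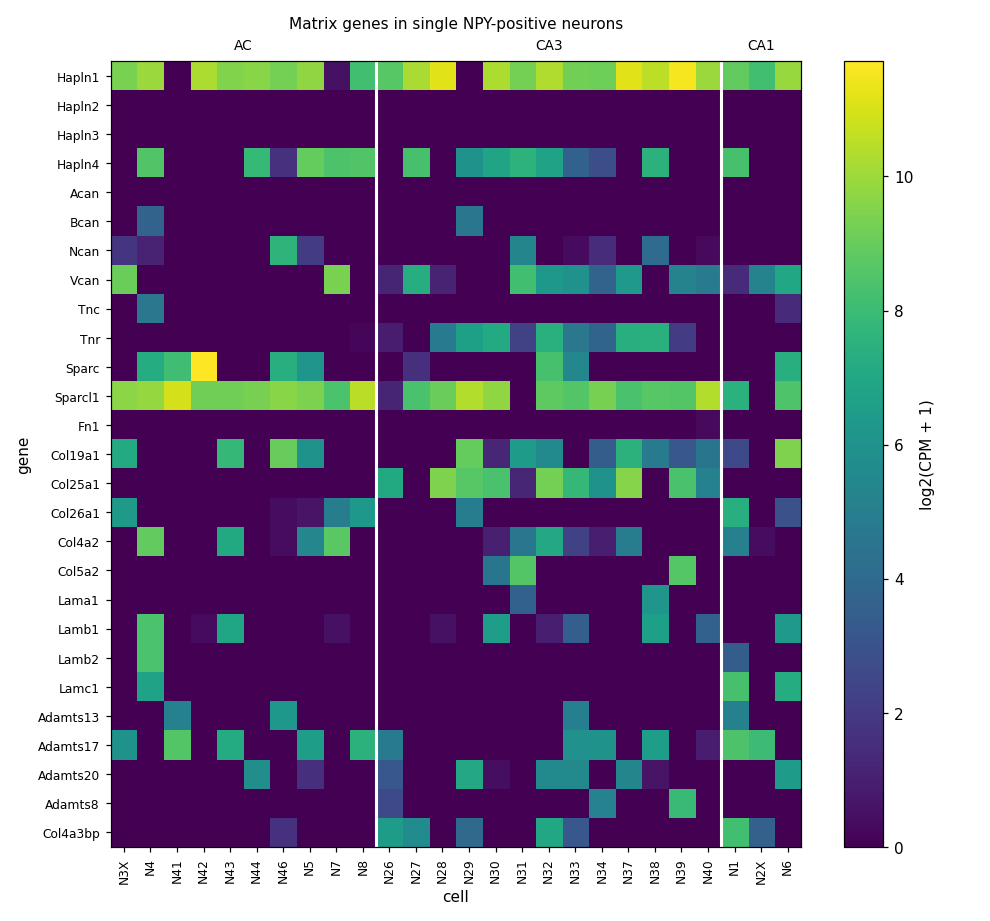
Heat map of log2(CPM + 1) for the 27 named matrix genes (rows) in each cell (columns), with AC, CA3 and CA1 cells divided by white lines. Hapln1 and Sparcl1 fill nearly every column, while Col25a1 and Tnr appear in 11 CA3 cells each but in 0 and 1 AC cells.

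For the comparison, each level was log2(normalized read count + 1) with scran size factors, and a gene was called where the mean level differed between regions by at least 1 and still did so after subtracting the median of all genes, which was -0.67 (AC minus CA3). By this rule 5 of the 15 members were higher in AC (Sparcl1, Sparc, Adamts17, Col26a1 and Col4a2), where 17.1% of all 9175 genes compared were called. In CA3, 6 of 15 were higher (Col25a1, Tnr, Vcan, Hapln1, Adamts20 and Col4a3bp), against 29% of all genes. As shares of the 15 members compared these counts were 33.3% and 40%, and no test set them against the background. Col25a1, Tnr, Vcan, Adamts20 and Col4a3bp were read in at least 5 CA3 cells but in fewer than 5 AC cells. The reverse held for Col26a1 and Sparc. Each of them thus met the condition of 5 cells through the region in which it was called. The median difference over the 15 members was -0.21, and it ranged from -0.94 to 0.29 when each cell was left out in turn. Without the 4 main cells that passed 1000 CPM on a glial marker list (N4, N42, N46 and N27), 13 members could be compared, with a median of -1.17. Sparc and Col4a3bp dropped out because each was then read in 4 cells, with differences of 1.16 and -2.32. Of the 13, 5 were called in AC, Hapln4 now among them, against 19.2% of all genes. In CA3, 4 were called (Col25a1, Tnr, Vcan and Hapln1), against 30.7%, and Adamts20 at -1.66 was not. A share of cells with a read that was higher in CA3 by at least 50 percentage points was found for 3 members (Col25a1, Tnr and Vcan) and for 3.13% of all genes. None of the members had such a share higher in AC, where it was found for 0.371% of all genes.

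**Figure D2:**
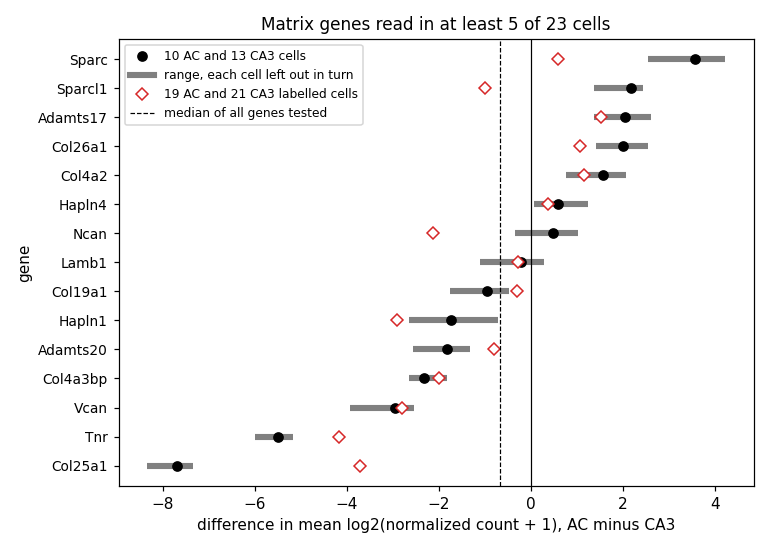
Difference in mean log2(normalized count + 1), AC minus CA3, for the 15 members read in at least 5 of 23 cells. Black points are the 10 AC and 13 CA3 cells, grey bars the range when each cell was left out in turn, open diamonds the 19 AC and 21 CA3 labelled cells, and the dashed line the median of all genes, -0.67; Col25a1 at -7.70 and Sparc at 3.57 mark the ends, and the diamond of Sparcl1 lies on the other side of 0 from its point.

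Col25a1, a transmembrane collagen whose shed ectodomain binds amyloid beta, was the member that separated the regions most. No AC cell and no CA1 cell had a read. In CA3, levels ran from 0 to 769 CPM with a median of 224, and 11 of 13 cells held 13283 reads in all. The cells without a read were N27 and N38, so the regions overlapped only at 0. Summed over cells, Col25a1 stood at 272 CPM in CA3 (interval 267 to 277), at least 3086-fold higher than the limit of 0.0881 CPM that 3 reads over the AC cells would give. The difference in mean level was -7.70 (7.70 ± 4.13 in CA3), and it stayed between -8.34 and -7.35 when each cell was left out in turn. The absence from AC held for the main cells: 2 other AC columns, N45 and N50, had 89.3 and 18.9 CPM, and over all labelled cells the difference was -3.73. The gene lies at chr3:130131501-130599877 (GRCm38, plus strand). Because Col25a1 passed the detection filter through its CA3 cells alone, its call could take 1 direction only. Earlier results of these data had already shown it.

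Tnr encodes tenascin-R, the lectican crosslinker of perineuronal nets, and followed nearly the same division, so that it too passed the detection filter through its CA3 cells. Part of its exon sequence overlaps an opposite-strand gene, Gm38039. Of the AC cells, N8 had a single read and the other 9 had none. In CA3, 11 of 13 cells held 2853 reads, from 0 to 172 CPM with a median of 24.2. The CA3 cells without a read were N27 and N40, and no CA1 cell had any. The difference in mean level was -5.51 (0.07 ± 0.22 in AC, 5.58 ± 3.42 in CA3), with a range of -6.00 to -5.18 over left-out cells and -4.18 over all labelled cells. Both Tnr and Col25a1 were read in 10 of 13 CA3 cells. The gene spans chr1:159523769-159931729 on the plus strand.

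Vcan, encoding the lectican versican, was read in more CA3 cells but at a higher level in the AC cells that had it. In AC it was at 545 CPM in N3X, 656 CPM in N7 and 0 in the other 8 cells. In CA3, 10 of 13 cells had reads, with a median of 26.3 and a highest value of 289 CPM. The CA1 cells had 1.66, 36.8 and 130 CPM. The mean level was therefore lower in AC (difference -2.95; 2.18 ± 4.59 against 5.13 ± 3.66), while summed reads were higher there, at 108 CPM (interval 105 to 112) against 55.4 CPM (interval 53.3 to 57.5). Direction thus turned with the summary, and the log2 ratio of summed CPM was 0.97. With a pseudocount of 10 in place of 1 the difference was -1.33 and was not called. In CA3, 8 of the 13 cells held reads of Col25a1, Tnr and Vcan together and each had at least 1 of them. Such counts, in CA3 as in AC, follow largely from the choice of these genes by their shares of cells. Whether the 3 genes were read together beyond those shares was not tested.

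Oligodendrocyte precursors are another source of tenascin-R, versican and lecticans in grey matter. Of their 5 markers, Pdgfra, Cspg4, Olig2 and Sox10 were at 0 in every main cell, and Olig1 reached at most 4.63 CPM, in 2 CA3 cells. The whole list summed to 0 in each AC cell and to 0 to 4.63 CPM in CA3.

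**Figure D3:**
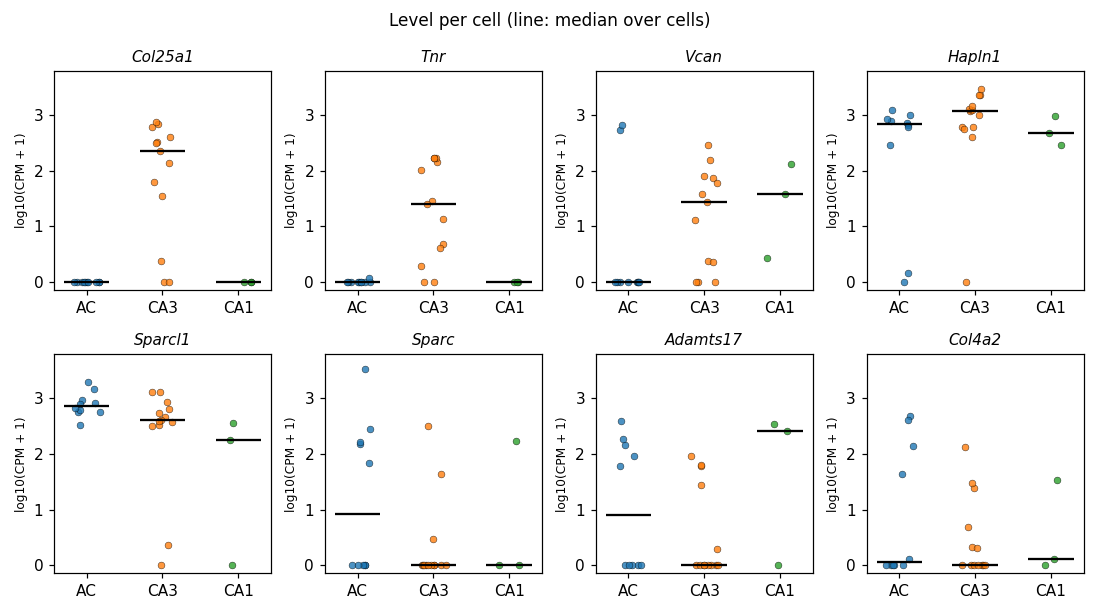
Level of 8 matrix genes in each AC, CA3 and CA1 cell as log10(CPM + 1), 1 point per cell, with a line at the median over cells. Col25a1 and Tnr lie at or near 0 in all AC and CA1 cells and spread up to 769 and 172 CPM in CA3, whereas Hapln1 and Sparcl1 are read in nearly every cell of both regions.

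For 4 genes, the 250 bases upstream of the start are shown for context from RefSeq (GRCm38.p6), each 5′ to 3′ on the strand of its gene. The genes are Col25a1, Tnr and Vcan, chosen by their shares of cells in CA3, and Adamts17, the protease called higher in AC. For Col25a1 the RefSeq start lies inside the gene span given above, which comes from GENCODE, so that this window overlaps the gene but no annotated exon. The sequence after this start was not found in a GENCODE transcript, whereas those of Tnr, Vcan and Adamts17 were. Capitals mark matches to GGGCGG (a GC box) or CAGCTG (an E-box). TATAAA and TAATTA were searched as well, all on both strands, and no matches overlapped.
Col25a1, chr3:130180595-130180844, plus strand: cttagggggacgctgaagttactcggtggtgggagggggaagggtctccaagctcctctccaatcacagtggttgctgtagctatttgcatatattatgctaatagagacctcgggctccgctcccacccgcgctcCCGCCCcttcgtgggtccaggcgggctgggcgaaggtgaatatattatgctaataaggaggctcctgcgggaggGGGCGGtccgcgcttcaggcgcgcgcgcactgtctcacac
Tnr, chr1:159523519-159523768, plus strand: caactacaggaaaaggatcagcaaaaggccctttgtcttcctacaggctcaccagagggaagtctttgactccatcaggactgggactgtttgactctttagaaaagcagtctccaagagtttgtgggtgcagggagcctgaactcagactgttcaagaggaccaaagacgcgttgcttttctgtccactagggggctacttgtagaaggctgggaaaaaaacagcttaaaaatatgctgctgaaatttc
Vcan, chr13:89742513-89742762, minus strand: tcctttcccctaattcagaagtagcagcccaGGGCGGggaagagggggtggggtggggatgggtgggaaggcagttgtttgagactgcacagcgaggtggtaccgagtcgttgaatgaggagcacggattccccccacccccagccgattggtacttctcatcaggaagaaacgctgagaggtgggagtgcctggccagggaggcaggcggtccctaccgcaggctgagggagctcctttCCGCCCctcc
Adamts17, chr7:66839485-66839734, plus strand: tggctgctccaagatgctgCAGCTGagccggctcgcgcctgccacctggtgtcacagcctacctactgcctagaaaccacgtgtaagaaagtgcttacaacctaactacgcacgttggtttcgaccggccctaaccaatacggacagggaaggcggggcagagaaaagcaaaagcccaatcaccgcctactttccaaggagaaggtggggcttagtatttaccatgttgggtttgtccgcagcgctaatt
Col25a1 and Vcan had 2 GC boxes each, Adamts17 had 1 E-box, and Tnr had none of the 4 motifs. Among 27025 promoter windows of the same length, GGGCGG occurred in 32.9%, CAGCTG in 12.8%, TATAAA in 12.97% and TAATTA in 4.90%. Windows differed in base composition, with 60.4% G and C and 18 CpG sites for Col25a1, 62.4% and 10 for Vcan, 54.4% and 13 for Adamts17, and 46.8% and 2 for Tnr. None of the 4 motifs was found upstream of all 3 of Col25a1, Tnr and Vcan.

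Link proteins gave the highest matrix level in CA3. Hapln1, which stabilises the bond between hyaluronan and lecticans, was read in 9 of 10 AC cells, from 0 in N41 and 0.444 CPM in N7 to 1237 CPM, with a median of 696. In CA3 it was read in 12 of 13 cells, from 0 in N29 to 3024 CPM in N39, with a median of 1189.8. The CA1 cells had 472, 284 and 949 CPM. The regions overlapped up to 1237 CPM, and 5 of 13 CA3 cells lay above every AC cell. The difference of -1.73 (9.28 ± 4.61 in AC, 11.01 ± 3.44 in CA3) was smaller than either SD and the call was lost when any of 8 single cells was left out, with a range of -2.66 (without N29) to -0.72 (without N41). It was -2.85 without the 4 cells rich in glial markers and -2.91 over all labelled cells, and was not called with a pseudocount of 0.1 (-1.88) or when 10 or more cells had to hold a read. Hapln1 made up 22.9 ± 14.5% of a cell's matrix reads in AC and 46.2 ± 17.7% in CA3.

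Hapln4, a link protein found around inhibitory synapses, was read in 6 of 10 AC cells (median 115, highest 495 CPM) and 8 of 13 CA3 cells (median 11.6, highest 316 CPM). Its difference of 0.60 was not called, but it ranged from 0.07 to 1.23 over left-out cells and was called higher in AC when any of 5 single cells was left out (N3X, N41, N42, N43 or N27). Hapln2 and Hapln3 had no read in any main or CA1 cell, which allows up to 0.0881 CPM over the AC cells and 0.0614 CPM over the CA3 cells.

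Each link protein gene lies next to a lectican gene in the annotation (GENCODE vM21, GRCm38). Hapln1 (chr13:89539796-89611652) and Vcan (chr13:89655312-89742509) are 43659 bases apart, Hapln2 and Bcan on chromosome 3 are 21519 apart, Hapln4 and Ncan on chromosome 8 are 2222 apart, and Hapln3 and Acan on chromosome 7 are 2 apart. The pairs differed in whether both partners were read. Hapln1 and Vcan were read together in 2 AC, 10 CA3 and 3 CA1 cells, while Hapln4 and Ncan shared 3 AC and 4 CA3 cells. Hapln3 and Acan were both unread, and Bcan was read without Hapln2.

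Beside versican, lecticans were low. Ncan (neurocan) was read in 4 AC and 5 CA3 cells, at 198 CPM in N46, at most 3.17 CPM in the other AC cells and at most 38.9 CPM in CA3, with a difference of 0.49 that was not called. Without N46 this difference was -0.34, without N31 it was 1.02 and called higher in AC, and over all labelled cells it was -2.12 and called higher in CA3. Bcan (brevican), largely a glial product in cortex, had 12.2 CPM in N4, 23.1 CPM in N29 and 0 in the other 21 main cells; over all labelled cells its difference was -2.44. Acan (aggrecan), the lectican by which perineuronal nets are most often recognised, had no read in any of the 23 main cells or the 3 CA1 cells. 5 AC and 12 CA3 cells had a read on a lectican of any kind. Hapln1 and a lectican were read in the same cell in 5 AC, 11 CA3 and 3 CA1 cells. Of those 11 CA3 cells, 9 also had Tnr. Tnc, the other tenascin, had 23.9 CPM in N4 and 1.63 CPM in CA1 cell N6, and Fn1 (fibronectin) had 1 read, in N40.

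Among the 44 collagens, 22 had no read and 4 could be compared. Fibrillar collagens, the structural collagens of connective tissue, were unread for 7 of 11 genes and had 2 reads in AC against 4587 in CA3. Of the latter, 4579 fell on Col5a2, which was at 398 CPM in N39, 377 in N31, 22.2 in N30 and 0 in all main AC and CA1 cells. The AC column N52, outside the main set, had 2809 CPM, from 115 of its 40934 reads, with 10822 CPM of oligodendrocyte precursor markers and 24.4 CPM of GABAergic markers. This gene was read in too few cells to be compared.

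Col19a1, a FACIT collagen made by some interneurons, was read in both regions. It was found in 4 AC cells, at 513 CPM in N46, 221 in N43, 141 in N3X and 62.9 in N5. In CA3, 9 of 13 cells had reads, with a median of 10.02 and a highest value of 493 CPM, and CA1 cells N1 and N6 had 4.99 and 692 CPM. Its difference was -0.96 and was not called, but without N46 it was -1.76 and was called higher in CA3.

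Col26a1, a secreted collagen, was read in 5 AC cells, at 78.4 CPM in N3X, 75.2 in N8, 30.2 in N7 and under 1 CPM in N46 and N5, and in 1 CA3 cell, N29, at 29.4 CPM. The difference was 2.01 (2.53 ± 3.53 against 0.51 ± 1.85) and the call held with each cell left out, at 1.41 or more. However, Col26a1 passed the detection filter through its AC cells, and it was not compared when 10 or more cells had to hold a read. CA1 cells N1 and N6 had 166 and 6.50 CPM.

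Col4a2, a chain of basement membrane collagen IV, was read in 5 of 10 AC cells (475 CPM in N4, 414 in N7, 138 in N43, 42.3 in N5 and 0.308 in N46) and in 6 of 13 CA3 cells (highest 134 CPM, in N32). Its difference of 1.57 was lost as a call without N4, N43 or N7, with 0.77 without N4. Collagen IV is built from Col4a1 and Col4a2 chains together, but both were read in only 1 AC cell (N5) and 1 CA3 cell (N34). In CA1 both were read in 2 of 3 cells (N1 and N2X). Col4a2 exons overlap those of Col4a1 on the opposite strand, and reads in the overlap cannot be assigned without strand. The same limit holds for the other 5 named genes that share exon bases with a gene on the opposite strand, which are Tnr, Tnc, Adamts8, Fn1 and Col4a3bp. Col4a3bp, the ceramide transfer protein, was at 2.16 CPM in N46 only in AC and at 7.98 to 125 CPM in 5 CA3 cells, with a difference of -2.32.

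Sparcl1, a secreted matrix protein that promotes synapse formation, was read in every AC cell, from 336 to 1979 CPM with a median of 737. In CA3 it was read in 12 of 13 cells, from 0 in N31 and 1.35 CPM in N26 to 1309.6 CPM, with a median of 403. The upper ranges overlapped, and the difference of 2.17 (11.58 ± 0.87 against 9.41 ± 3.77) was lowest without N31, at 1.37, and still called. In the 6 main cells with under 1 CPM on the astrocyte list, 2 AC and 4 CA3 cells, Sparcl1 stood at 383 to 1309.6 CPM. Over all labelled cells the direction reversed, to -1.01, and under the filter the study states it was 0.39 and not called. The labelled cells include CA3 library N17, with 37179 CPM of astrocyte markers and 8349.8 CPM of Sparcl1, which the stated filter leaves out. The part of such libraries in the reversal was not tested.

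Sparc, a collagen-binding secreted protein, was read in 5 AC cells, at 3363 CPM in N42, 282 in N41, 161 in N46, 149.9 in N4 and 68.7 in N5. In CA3 it was read in N32 at 314 CPM, N33 at 42.2 and N27 at 2.00 CPM. Its difference was 3.57 (5.10 ± 5.64 against 1.53 ± 3.22), the largest in the AC direction among the members, and N42 alone held 85.8% of its AC reads. Without N42 the difference was 2.56. The 8 main cells with a Sparc read were also the 8 with the highest sums of microglia markers, 486 to 4330 CPM, against 0 to 483 CPM in the other 15. Without the 4 main cells that passed 1000 CPM on the astrocyte, oligodendrocyte or microglia list the difference was 1.16, and Sparc, then read in 4 cells, was no longer compared. Over all labelled cells it was 0.60, and under the filter the study states 0.99, neither of them called. The part of those markers in the result was not tested.

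**Figure D4:**
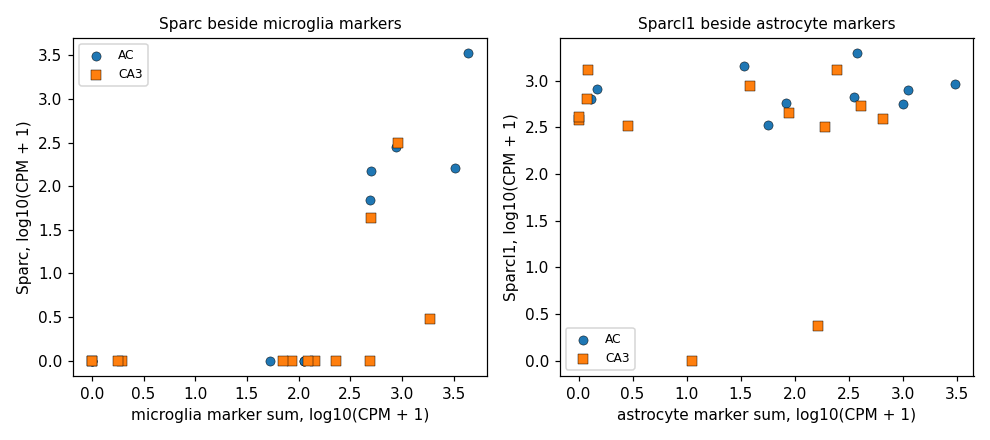
Left, Sparc against the summed microglia markers in the 23 main cells; right, Sparcl1 against the summed astrocyte markers; all axes are log10(CPM + 1), with circles for AC and squares for CA3. Cells with a Sparc read all lie at 486 CPM of microglia markers or more, while Sparcl1 is at 383 CPM or more in the 6 cells with under 1 CPM of astrocyte markers.

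Laminins, the cross-shaped proteins of basement membranes, need an alpha, a beta and a gamma chain. No main cell had all 3. Any laminin was read in 12 of 23 cells, a beta chain in 10, an alpha chain in 2 and a gamma chain in 2. Lamb1, the only laminin that could be compared, was read in 4 AC and 6 CA3 cells, at most 336 CPM in N4 and 96.5 CPM in N38. Its difference was -0.21, with -1.11 without N4, 0.29 without N30 and -1.17 without the 4 cells rich in glial markers. N4 held 3030 CPM of astrocyte markers, and their part in its laminin reads was not tested. Lamb2 and Lamc1 were at 336 and 107 CPM in N4 and 0 in the other 22 main cells, and Lama1 at 67.6 and 11.4 CPM in N38 and N31. Lamc1 was also read in CA1 cells N1 and N6, at 314 and 149.6 CPM.

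Of the 19 Adamts proteases, 5 had no read and 2 could be compared, and they were called in opposite directions. Adamts17, a protease linked to fibrillin microfibrils, was at 385 CPM in N41, 184 in N8, 145 in N43, 90.4 in N5 and 60.9 in N3X, and at 0 in the other 5 AC cells. In CA3 it was read in 5 of 13 cells, at most 92.1 CPM, and in CA1 it was at 352, 260.4 and 0 CPM. The difference of 2.05 (4.53 ± 4.86 against 2.48 ± 3.53) kept its call with each cell left out, at 1.37 or more. All 5 AC cells with Adamts17 also had reads of Ndnf, a marker of cortical neurogliaform cells that was read in 7 of the 10. Ndnf was read in 1 CA3 cell, N29, which had no Adamts17.

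Adamts20, a versican-cutting protease, was read in 2 AC cells, at 54.0 CPM in N44 and 2.12 in N5, and in 7 of 13 CA3 cells, at most 132 CPM in N29. The difference of -1.82 was lost as a call when any of 10 single cells was left out, with a pseudocount of 10 (-0.96), over all labelled cells (-0.80), under the filter the study states (-0.73) and after thinning to equal depth (-1.53). Adamts8 was at 245 CPM in N39, 35.3 in N34, 4.93 in N26 and 0 in the other main cells, and Adamts13 at 74.5 and 34.8 CPM in AC cells N46 and N41 and 32.5 CPM in N33. Adamts4, a principal lectican-cutting protease, was unread in all main and CA1 cells. The 61 members that the rule for named genes left out, Adamts4 and Col4a1 among them, included 29 with a read, in at most 4 main cells each, and 17 of those stayed at 10 CPM or below in every main cell.

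Lhx6, a transcription factor of interneurons born in the medial ganglionic eminence, had reads in 12 CA3 cells and in no main AC cell. N29, the CA3 cell without Lhx6 and with Ndnf at 671 CPM, had Col25a1 at 411 CPM and Tnr at 100.4 CPM, but neither Vcan nor Hapln1. Lhx6 stood at 109 to 865 CPM in 10 main CA3 cells, all of which had Col25a1, and at 0.800 CPM in N27 and 0.545 CPM in N38, which had none. Tnr was unread in N27 and in N40, where Lhx6 was at 429.9 CPM. Outside the main set, CA3 column N36 had Lhx6 at 1835 CPM but no read of Col25a1 or Tnr, and AC column N45 had Lhx6 at 247 CPM with Col25a1 at 89.3 CPM.

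Of 82 partner genes that bind, build or cut matrix, 26 could be compared, with 5 called in each direction, where the shares of all genes called were 17.1% in AC and 29% in CA3. Among receptors, Ptprz1, a phosphatase that binds chondroitin sulphate, differed by 4.07 in favour of AC (read in 5 AC and 1 CA3 cells). Dag1 (dystroglycan) differed by 1.28 in favour of AC (3 and 4 cells). In favour of CA3 were Ddr2, a collagen receptor, by -2.16 (5 and 9 cells) and Sdc2 (syndecan 2) by -2.74 (2 and 6 cells). Collagen-modifying enzymes P4ha1 (1.71, read in 6 AC and 3 CA3 cells) and Plod2 (1.11, 3 and 3 cells) were higher in AC. Ppib (-1.96, 7 and 12 cells) was higher in CA3. Chpf2, which extends chondroitin chains, was higher in CA3 (-2.22, read in 4 AC and 10 CA3 cells). Mmp17, a membrane-anchored metalloprotease, gave the largest partner difference, 5.21, present in 9 AC but 5 CA3 cells. Mmp16 was higher in CA3 (-2.90, read in 3 AC and 8 CA3 cells). Over all labelled cells, Mmp17, Sdc2 and Ppib kept their calls and the other 7 lost theirs. Of those 7, Dag1 turned to -1.15, and the others stood at 0.81 (Ptprz1), 0.11 (P4ha1), 0.37 (Plod2), -0.29 (Ddr2), -0.82 (Chpf2) and -1.75 (Mmp16). Calls were also gained over all labelled cells: Ptprs (1.30), Chsy1 (1.16) and Furin (1.11) in AC, and P4hb (-3.29) and Chst12 (-2.10) in CA3. Of 18 integrins, 1 (Itgb1) could be compared and was not called.

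Libraries outside the main set held Hapln2, Adamts4 and Acan, which were unread in the main cells, and higher levels of some other members. Bcan reached 4696 CPM in dentate gyrus library N12, where Ncan was at 2398 CPM and astrocyte markers summed to 33887 CPM. Ncan reached 2902 CPM in CA3 library N22, with 35282 CPM of astrocyte markers. Hapln2, the link protein of nodes of Ranvier, was at 772 CPM in N18, 866 in N23 and 682 in the NPY-negative cell N16, each with at least 110468 CPM of oligodendrocyte markers, and Adamts4 at 541, 237 and 178 CPM in the same libraries. Acan reached 893 CPM and Vcan 669.9 CPM in N14, and Tnr 904 CPM in N15, both of which held precursor markers (8878 and 3564 CPM). Using all labelled cells, 4 of 22 members were called higher in AC (7.65% of all genes) and 7 in CA3 (25.5%).

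**Figure D5:**
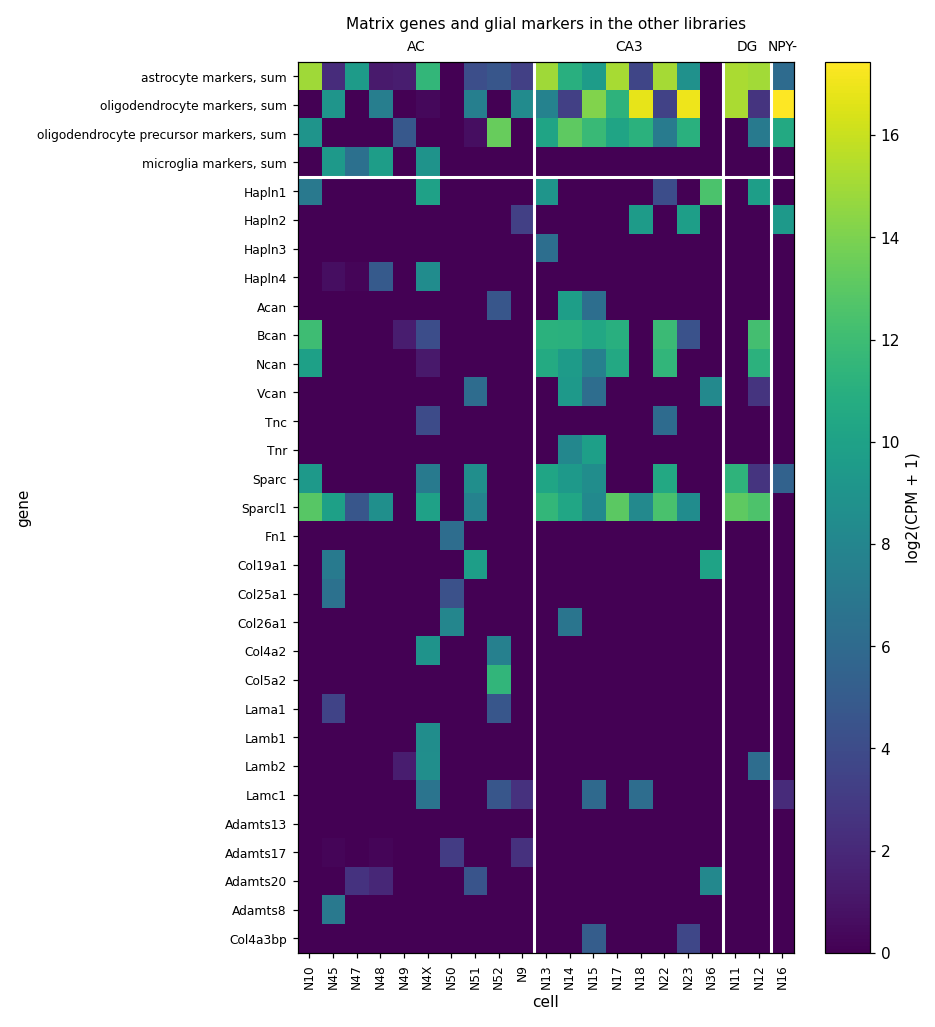
Heat map of log2(CPM + 1) in the libraries outside the main set, grouped as AC, CA3, dentate gyrus (DG) and the NPY-negative cell, with summed glial marker lists in the top rows and the 27 named genes below. Bcan reaches 4696 CPM in N12, with 33887 CPM of astrocyte markers, but is at 0 in N11, with 38165 CPM, and Hapln2 reaches 866 CPM in N23, rich in oligodendrocyte markers.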

How the data were processed

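Cytosol of single cells was amplified and sequenced (Nextera XT libraries). Per the study's methods, the authors trimmed reads with Trimmomatic and Flexbar and aligned them to GRCm38 with STAR; the methods name HTSeq and the submitters' processing notes featureCounts as the counter, so which made the file is not settled here. The deposited values are raw read counts per gene symbol (22800 symbols, 47 cells); the authors averaged counts of identifiers that share a symbol. The methods list sense, antisense or both as options without saying which was used.

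Size factors were recomputed with scran 1.30.0 (R 4.3.3, pools of 10 and 20) on the 23 main cells, and levels are log2(normalized count + 1). Only genes read in 5 or more of the 23 cells were compared; a call needs a difference of at least 1, also after subtracting the median of all genes. CPM uses all reads on genes, and RPKM the GENCODE vM21 exon union. No test was run, because each region is 1 sample. On simulated counts for AC against CA3, 195 of 200 changed genes among 9175 were recovered with their direction, and 4.02% of unchanged genes were called. The changed genes were taken only from those above a set mean number of reads, and no zeros were added to the counts. These rates therefore do not carry over to members that were unread in many cells.

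Named were the lecticans, link proteins, tenascins, Sparc, Sparcl1, Fn1, every called member, and the 4 highest per length among collagens, laminins and Adamts proteases; of partner lists, the called genes. Adamts4, Ndnf, Lhx6, Col4a1 and Itgb1 were added after their values were seen. Main cells, members and lists were chosen with earlier results of these data known. Alternatives were other size factors (edgeR 4.0.16, DESeq2 1.42.0, library size), pseudocounts of 10 and 0.1, filters, all labelled cells, the filter the study states (17 AC and 20 CA3 cells), thinning to 1715012 reads and leaving out each cell; the removal of 4 main cells with over 1000 CPM on a glial list was added after seeing the data.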

Additional observations from a re-analysis of the deposited data

Results flagged for a closer look

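Among 19 groups of 10 AC cells, 8 had their highest cell farther from the rest than Dixon's limit of 0.466 allows, where chance flags about 1 in 20. The gap as a share of the range was 1 for Bcan, Lamb2, Lamc1 and Tnc in N4, for Col4a3bp in N46 and for Tnr in N8, each the only AC cell with a read, which fixes the share at 1. That rate holds for normally distributed values and not for groups that are mostly 0, so the number of such cells is not set against it. It was 0.628 for Adamts20 in N44 and 0.651 for Ncan in N46.

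In libraries the comparisons did not use, the NPY-negative cell N16 held 52 reads of Adamts4 and 199 reads of Hapln2, and dentate gyrus cell N12 held 30 reads of Lama2. All 3 genes were at 0 in the main and CA1 cells.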

How the results depend on the processing

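The call of Adamts17 held under every alternative run, as did those of Col25a1 and Tnr, whose direction was fixed by their passing the filter through CA3 cells. Those of Hapln1 and Adamts20 were lost without single cells and under several other settings. Of the alternative values for named genes, 916 stayed within 1 SD over cells and 15 moved by more. In 2 cases a called difference changed sign: Sparcl1 over all labelled cells (-1.01) and Vcan as a log2 ratio of summed CPM (0.97). An SD over cells is a wide limit, and a value within it can lose its call, as Hapln1 did at -0.72 without N41. The 916 also include Acan, Hapln2 and Hapln3, which are fixed at 0 wherever only main cells were used. Of genes not called, Ncan (-2.12), Bcan (-2.44), Lama1 (0.09), Tnc (-0.10) and Fn1 (0.43) also changed sign over all labelled cells and under the stated filter, and Ncan, Bcan, Lamb1 and Col19a1 did under other settings. With no filter on low counts 8 of 53 members were called in each region, against 14.5% of all genes in AC and 25.7% in CA3, and when 10 or more cells had to hold a read 3 of 10 in each, against 16.6% and 29.9%. The difference in member CPM was -1740 over all labelled cells and -1071 under the stated filter. Without the 4 cells rich in glial markers the median difference was -1.17. Leaving out each cell gave 4 to 6 calls in AC (4 without N4 or N7), 4 to 7 in CA3 (4 without N7 or N37), a median difference of -0.94 to 0.29 and a difference in CPM of -137 to 296. Detection limits what can be said: with 10 cells, a share of 0 allows up to 30.8% of such cells to give a read, and sets no limit on cells that express the gene. No paired analysis was possible because the labels give no replicate numbers and tie no AC cell to a CA3 cell.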
